A study of Caenorhabditis elegans with 9 samples.

Results

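Undepleted control worms at 24 h were compared with undepleted control worms at 18 h, a step of 6 h at 16 °C, to describe which genes differed in level between the 2 times when RNA polymerase I was left in place. The comparison covers the genes listed in at least 2 of the 4 control libraries, which were 8014 of the 13246 genes listed anywhere in the series. The series is an RNA-seq study of whole Caenorhabditis elegans in which RPOA-2, a core subunit of RNA polymerase I, was depleted by an auxin-inducible degron. All 9 libraries came from animals carrying degron::GFP::rpoa-2, and the titles add the word embryo. The depleted animals were kept for 24 h on 1 mM IAA, an auxin, and carried TIR1, the plant protein that marks a degron-tagged protein for destruction in the presence of auxin. In global depletion (n = 2) TIR1 was driven by eft-3p, and in hypodermal depletion (n = 3) by col-10p. The controls had no IAA and no TIR1 in their labels, and were sampled at 24 h (Control 2, n = 2) and 18 h (Control 1, n = 2). Synchronized eggs were plated, but neither the starting point of the hours nor the stage at harvest is given. Whether replicates were grown apart from each other is not stated, and p-values here measure only how far these libraries spread, which may be technical. Whole animals were sequenced, so more or fewer cells of a type and more or less RNA per cell cannot be told apart.

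The C. elegans larva is covered by a cuticle, a collagen-rich matrix secreted by the epidermis (hypodermis), and a new cuticle is made under the old one before every molt. Cuticle collagens and other matrix genes are known to be transcribed in pulses, each within its own window of a larval stage. The intestine makes digestive proteases and lysosomal proteins, and pharyngeal glands and muscles serve feeding. Growth after hatching is known to draw on ribosome production and, in dividing blast cells, on DNA replication.

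The 24 h libraries held 324321 and 506659 counts over coding sequence, and the 18 h libraries held 197970 and 166455, against 781648 to 2134185 in the depleted libraries. The table lists no count below 3, so a count that is missing from it was below that. On the scale used below, counts scaled to the library total with TMM factors (CPM), 3 counts stood for 9.597 and 6.10 CPM at 24 h and for 14.9 and 18.3 CPM at 18 h. These floors mark the lowest listed count alone. Bounds built on them allow for neither counting error nor spread between replicates. Of the 8014 genes, 4779 were listed in all 4 libraries, 1660 in 3 and 1575 in 2. The last of these comprised 760 listed in both 24 h libraries alone, 85 listed in both 18 h libraries alone and 730 listed once at each time. A gene therefore had to reach a higher level to be listed at 18 h than at 24 h, and the calls listed below carry that limit. Replicates of a time differed by more than sampling noise, with a chi-square per degree of freedom of 3.08 at 24 h and 1.81 at 18 h. The tagged gene rpoa-2 had 157 and 262 CPM at 24 h and 189 and 275 CPM at 18 h (log2 fold change -0.11 with SE 0.29, adjusted p = 0.896), so the groups overlapped. Of 20 early embryo regulators found anywhere in the table, 4 were among the 8014 genes, with summed levels of 256 and 368 CPM at 24 h and 398 and 372 CPM at 18 h. Of 9 eggshell and hatching genes, 3 were, with summed levels of 12.797 and 40.7 CPM at 24 h and 34.8 and 18.3 CPM at 18 h.

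The 24 h controls differed from the 18 h controls at 244 of the 8014 genes, of which 74 were higher and 170 lower at 24 h. Genes were called with edgeR's quasi-likelihood test at a Benjamini-Hochberg adjusted p below 0.05 over all 8026 genes tested in the series, of which 7539 were among the 8014. Of the 8026 genes, 3.05% were called, 0.922% higher and 2.13% lower at 24 h. Counts of called genes in the lists below are to be read beside these shares, and some lists lie near them. The median fitted log2 fold change of the called genes was 1.55 in size for those higher and 2.25 for those lower, and the smallest called changes were 0.81 and 0.78. Of the 74 genes, 9 were unlisted in both 18 h libraries, and of the 170, 24 were unlisted in both 24 h libraries. Such a gene was included only because it was listed in both libraries of the other time, so its direction was fixed by that choice, and its bound is given below as a description. In each of the 244 genes both 24 h values lay on one side of both 18 h values, which was also so for 3311 of the 7539 tested genes. Where this is repeated below it describes the values and adds no support to a call. The share of genes called was 0.247% below a mean of 20 CPM and 8.89% at 300 CPM or more. At an unadjusted p below 0.05, 613 genes were higher and 684 lower.

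The balance of higher and lower calls depended on how unlisted counts were entered, which was as 1. With 0 in their place, 212 genes were higher and 100 lower and the median of all genes moved by 0.23 (log2). With 2 the counts were 106 and 149. With no filter on low counts they were 352 and 72, with a shift of 0.41. With the genes listed in all 4 control libraries fitted alone they were 106 and 126, and with DESeq2 42 and 196. No gene was called in the opposite direction under any of these. Leaving out 24 h control replicate 2 left 76 calls, 24 h control replicate 1 161, 18 h control replicate 1 138 and 18 h control replicate 2 124.

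The calls of 36 genes, 8 higher and 28 lower at 24 h, were kept without each of the 9 libraries in turn. The same 36 were also called with unlisted counts as 0 or 2, with RLE or total-count scaling and with DESeq2. They were picked out after their values had been seen, and are named below as the 36 held calls, which refers to these refits alone. With no filter on low counts the galectin gene lec-2, 1 of the 36, had an adjusted p of 0.0523. All 8 genes on the higher side and 24 of the 28 on the lower side were listed in all 4 control libraries.

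**Figure D1:**
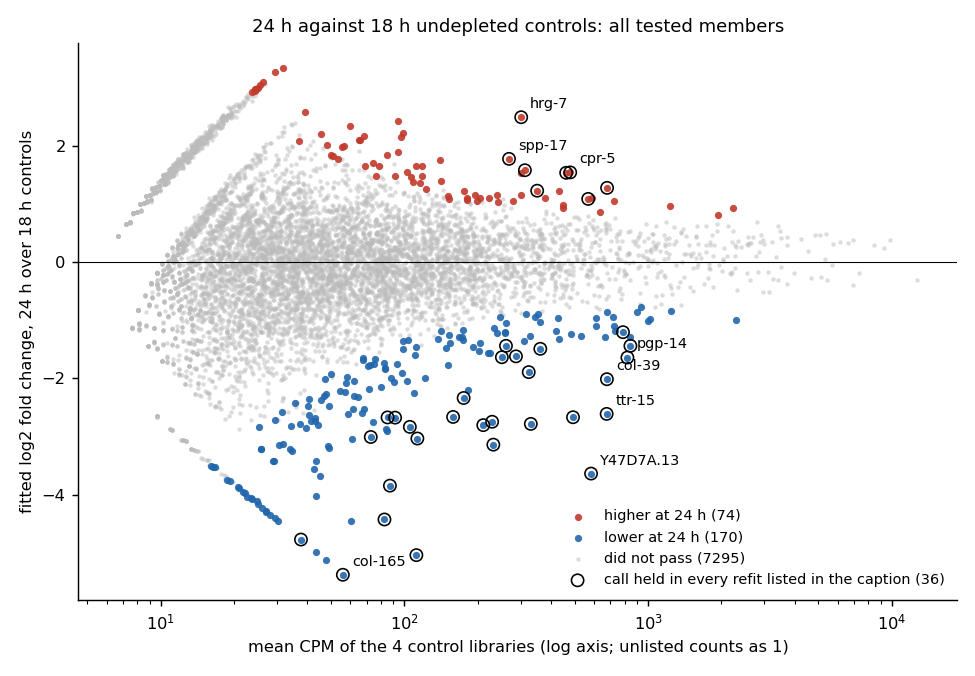
Fitted log2 fold change of the 24 h over the 18 h controls against the mean CPM of the 4 control libraries (log axis) for the 7539 tested genes. Red points are the 74 genes higher and blue points the 170 genes lower at 24 h at an adjusted p below 0.05, and circles mark the 36 genes whose calls held without each library in turn, with unlisted counts as 0 or 2, with RLE or total-count scaling and with DESeq2. The straight bands at low levels are genes unlisted in both libraries of 1 time, and the circled genes lie mostly to their right.

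Among the 8 higher genes of the 36 held calls, hrg-7 had the largest change. It encodes an aspartic protease-like protein secreted by the intestine and known for systemic signalling of heme status. Its level was 515 and 508 CPM at 24 h and 84.6 and 97.7 CPM at 18 h (log2 fold change 2.49 with SE 0.31, adjusted p = 1.77e-07). The saposin-like gene spp-17 had 467 and 366 CPM at 24 h and 119.4 and 122 CPM at 18 h (log2 fold change 1.78 with SE 0.30, adjusted p = 1.20e-04). For mpc-1, a subunit of the mitochondrial pyruvate carrier, the values were 509 and 429 CPM at 24 h and 164 and 147 CPM at 18 h (log2 fold change 1.58 with SE 0.31, adjusted p = 0.00101). In these genes the replicates of a time lay close together and far from those of the other time. The cathepsin B-like protease gene cpr-5 stood at 822 and 604 CPM at 24 h and 209 and 281 CPM at 18 h (log2 fold change 1.54 with SE 0.27, adjusted p = 2.12e-04). The α-tubulin gene tba-2 (819 and 726 CPM at 24 h, 353 and 372 CPM at 18 h, log2 fold change 1.09 with SE 0.24, adjusted p = 0.00486) and let-418, which encodes a Mi-2 chromatin remodeller (528 and 455 CPM at 24 h, 199 and 219.8 CPM at 18 h, log2 fold change 1.23 with SE 0.27, adjusted p = 0.00409), changed less. R193.2 (755 and 618 CPM at 24 h, 239 and 232 CPM at 18 h) and F46F2.3 (1001 and 921 CPM at 24 h, 383 and 409 CPM at 18 h) completed the 8, with log2 fold changes of 1.54 and 1.28.

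**Figure D2:**
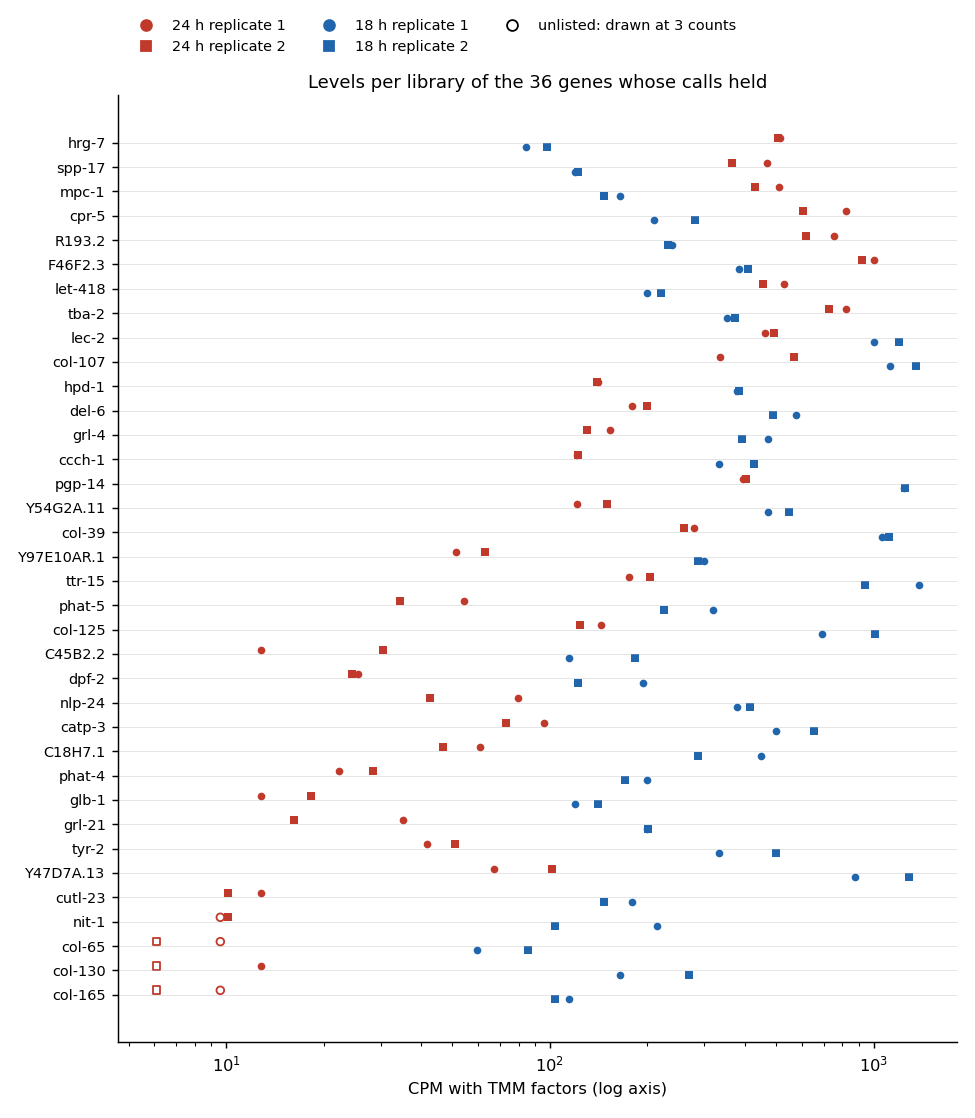
CPM (log axis) in each 24 h (red) and 18 h (blue) control library for the 36 genes whose calls held without each library in turn, with unlisted counts as 0 or 2, with RLE or total-count scaling and with DESeq2, with the largest rise at the top and the largest fall at the bottom. The 2 colours do not overlap in any of these genes, as in every called gene. Open symbols for nit-1, col-65, col-130 and col-165 mark unlisted counts, drawn at 3 counts.

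Cuticle collagens, the main structural proteins of the cuticle, changed in both directions. Of 62 tested, 5 were higher and 14 lower at 24 h (8.06% and 22.6%, beside 0.922% and 2.13% over all genes tested). The median log2 fold change of the 62 was 0.06, beside 0.00 over all 7539 tested genes. That median lay between 0.29 below and 0.12 above the median of all genes over the main setting and the 12 alternatives that keep all control libraries, so the family as a whole had no stable direction. Among the 34 collagens listed in all 4 libraries, 4 were higher and 7 lower, with a median of -0.36 beside -0.07 over all genes so listed. Collagen genes with near-identical copies are uncertain one by one, since the treatment of shared reads is not given in the sources used here.

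The collagens col-165 and col-65 were unlisted in both 24 h libraries. At 18 h col-165 had 114 and 103.8 CPM, which makes it at least 13.9-fold lower at 24 h with 3 counts in each 24 h library. The same bound for col-65, with 59.7 and 85.5 CPM at 18 h, was at least 9.25-fold lower. Both were included through the 18 h libraries alone, where they are high, which fixed the direction. The gene col-130 was listed in 24 h replicate 1 alone, at 12.797 CPM, and had 164 and 269 CPM at 18 h (log2 fold change -5.04 with SE 0.69, adjusted p = 2.24e-06). Collagens with higher levels fell as well, with every 24 h value below every 18 h value, as in every gene called lower. The gene col-125 had 144 and 124 CPM at 24 h and 692 and 1007 CPM at 18 h (log2 fold change -2.67 with SE 0.28, adjusted p = 4.50e-09). For col-39 the levels were 278 and 260.2 CPM at 24 h and 1060.0 and 1111 CPM at 18 h (log2 fold change -2.01 with SE 0.24, adjusted p = 1.67e-07), and for col-107 336 and 567 CPM at 24 h and 1125 and 1355 CPM at 18 h (log2 fold change -1.44 with SE 0.25, adjusted p = 2.12e-04). These 6 collagens were among the 36 held calls, and for col-165 and col-65 the direction was fixed as said. Of the other 8 collagens lower at 24 h, col-12 was unlisted at 24 h and had 74.6 and 109.9 CPM at 18 h, at least 11.8-fold lower, with the direction fixed in the same way, and its call ended without 24 h control replicate 2 (adjusted p = 0.0609).

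The 5 collagens higher at 24 h were dpy-13, dpy-4, col-41, col-42 and col-103, and none of them was among the 36 held calls. The dpy genes are named for the short, stout body of their mutants. The gene dpy-13 had 118 and 207 CPM at 24 h and 49.8 and 18.3 CPM at 18 h (log2 fold change 2.22 with SE 0.53, adjusted p = 0.0104). Its neighbour in size of change, dpy-4, had 166 and 150.4 CPM at 24 h and 39.8 and 30.5 CPM at 18 h (log2 fold change 2.15 with SE 0.53, adjusted p = 0.0118). The gene col-42 had 479.9 and 726 CPM at 24 h and 249 and 269 CPM at 18 h (log2 fold change 1.23 with SE 0.26, adjusted p = 0.00305). No 24 h value of the 3 genes was as low as an 18 h value, as in every gene called higher. Leaving out 24 h control replicate 2 gave an adjusted p of 0.215 for dpy-13, 0.0688 for dpy-4, 0.0779 for col-41, 0.115 for col-42 and 0.303 for col-103. With 18 h control replicate 2 left out it was 0.129 for dpy-13, 0.09 for dpy-4, 0.147 for col-41 and 0.251 for col-103, and without 24 h control replicate 1 it was 0.0554 for dpy-4. The 6 collagens known to form the annular furrows of the cuticle all had positive estimates, with a median of 0.91. Only 1 of the 6 was listed in all 4 control libraries, so the signs of the others rest in part on counts entered as 1. None of the 6 was called by edgeR or DESeq2, and 2 were higher at an unadjusted p below 0.05. Of the 6, dpy-8 was the most abundant, with 157 and 138 CPM at 24 h and 99.5 and 48.8 CPM at 18 h (log2 fold change 0.96 with SE 0.46, adjusted p = 0.285).

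**Figure D3:**
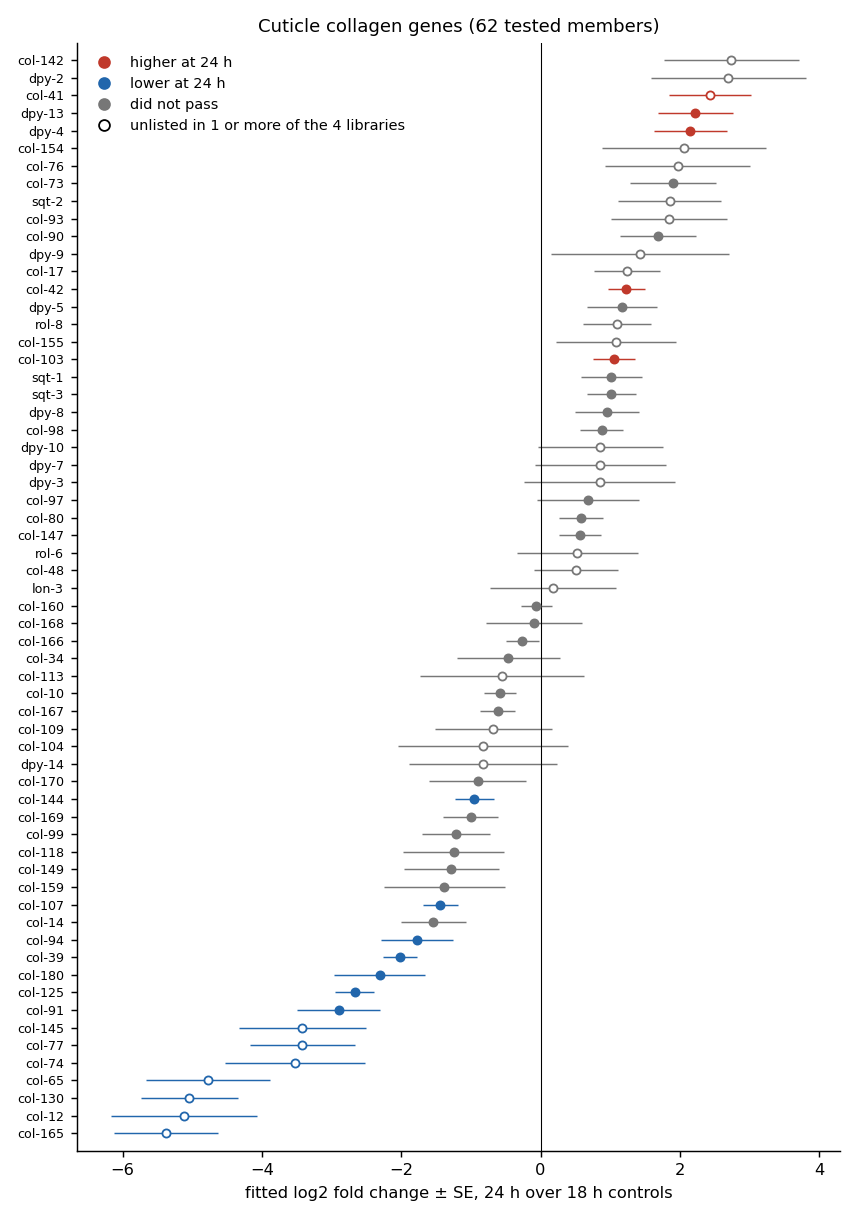
Fitted log2 fold change of the 24 h over the 18 h controls, with its standard error, for the 62 tested cuticle collagen genes in order of change. The 14 blue genes lie between -0.95 and -5.38 and the 5 red genes between 1.06 and 2.43; open symbols mark genes unlisted in 1 or more of the 4 control libraries.

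Other genes of the cuticle and its making were called on the lower side alone. Of 19 genes of the precuticle and apical matrix, 0 were higher and 2 lower (10.5%, beside 2.13% over all genes tested). The cuticlin-like gene cutl-23 had 12.797 and 10.2 CPM at 24 h and 179 and 147 CPM at 18 h (log2 fold change -3.85 with SE 0.60, adjusted p = 2.50e-05), and was among the 36 held calls. The second, cutl-20, lost its call without 24 h control replicate 2 (adjusted p = 0.212), without 18 h control replicate 1 (0.0727) or 18 h control replicate 2 (0.0523). Of 8 enzymes of collagen processing, 1 was lower (12.5%). This was mlt-7, a heme peroxidase that is known to cross-link the cuticle, with 102 and 119.9 CPM at 24 h and 274 and 317 CPM at 18 h (log2 fold change -1.39 with SE 0.31, adjusted p = 0.00457). The adjusted p of mlt-7 was 0.065 without 24 h control replicate 1, 0.0564 without 24 h control replicate 2 and 0.0774 without 18 h control replicate 2. Of 16 proteases and inhibitors of molting none was called by edgeR or DESeq2, with 1 higher and 1 lower at an unadjusted p below 0.05. Of these, mlt-11, a protease inhibitor, had 553 and 628 CPM at 24 h and 547 and 372 CPM at 18 h (log2 fold change 0.36 with SE 0.27, adjusted p = 0.531). Of 21 genes of epidermal junctions and attachment none was called either (0 higher and 2 lower unadjusted), and their summed levels overlapped between the times (14962 and 18478 CPM at 24 h, 17970 and 17772 CPM at 18 h).

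Hedgehog-related and patched-related genes, a large family in nematodes with many members made in the epidermis, were lower where they were called. Of 31 tested, 0 were higher and 5 lower, and the median was -0.13 for all tested and -0.70 for the 18 listed in all 4 libraries. The ground-like gene grl-21 had 35.2 and 16.3 CPM at 24 h and 199 and 201 CPM at 18 h (log2 fold change -3.03 with SE 0.52, adjusted p = 1.82e-04). A second ground-like gene, grl-4, had 154 and 130.1 CPM at 24 h and 473 and 391 CPM at 18 h (log2 fold change -1.62 with SE 0.30, adjusted p = 6.41e-04). Both were among the 36 held calls, with the 24 h values below both 18 h values, as in every gene called lower. Of the patched-related genes, ptr-14 had 25.6 and 14.2 CPM at 24 h and 99.5 and 159 CPM at 18 h (log2 fold change -2.74 with SE 0.54, adjusted p = 0.00107, and 0.0779 without 24 h control replicate 2). The other 2, grd-13 and ptr-20, lost their calls without 24 h control replicate 1 (adjusted p = 0.114 and 0.136) or 18 h control replicate 1 (0.158 and 0.208), and ptr-20 without 6 other single libraries as well.

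Transthyretin-like genes, a nematode family of mostly secreted proteins, had the lowest median of the families examined that had over 10 tested members. Of 25 tested, 0 were higher and 5 lower (20%, beside 2.13% over all genes tested). Of the 25, 5 had a positive estimate, and the median was -1.02 beside 0.00 over all genes. The median lay between 0.97 and 1.61 below that of all genes in the main setting and the 12 alternatives that keep all control libraries. The gene ttr-15 had 176 and 203 CPM at 24 h and 1383 and 940.2 CPM at 18 h (log2 fold change -2.61 with SE 0.27, adjusted p = 4.50e-09) and was among the 36 held calls. Of the others, ttr-18 had 111.97 and 93.5 CPM at 24 h and 249 and 311 CPM at 18 h (log2 fold change -1.45 with SE 0.32, adjusted p = 0.00484), with an adjusted p of 0.116 without 24 h control replicate 2 and 0.0962 without 18 h control replicate 2. The calls of ttr-2, ttr-17 and ttr-33 also ended without 1 of the control libraries, at adjusted p between 0.0568 and 0.2.

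Of 17 genes of the pharynx, 0 were higher and 2 lower (11.8%, beside 2.13% over all genes tested). Both lower genes belonged to the pharyngeal gland family phat. The gene phat-4 had 22.4 and 28.5 CPM at 24 h and 199 and 171 CPM at 18 h (log2 fold change -2.83 with SE 0.46, adjusted p = 5.70e-05), and phat-5 had 54.4 and 34.6 CPM at 24 h and 318 and 226 CPM at 18 h (log2 fold change -2.66 with SE 0.40, adjusted p = 1.56e-05). Both were among the 36 held calls. The summed level of the pharynx list was 8686 and 10936 CPM at 24 h and 13103 and 11618 CPM at 18 h, with every 24 h value below every 18 h value. For body wall muscle the sums were 53810 and 65946 CPM at 24 h and 70256 and 75210 CPM at 18 h, and 7 of 39 tested genes had a positive estimate, with a median of -0.30. Of the 39, 1 was lower and 1 higher (2.56% each, beside 2.13% and 0.922% over all genes tested). One muscle gene, mlc-1, a myosin regulatory light chain, was lower (681 and 685 CPM at 24 h, 1214 and 1489.7 CPM at 18 h, log2 fold change -0.98 with SE 0.22, adjusted p = 0.00525), and 1, the actin gene act-2, was higher (342 and 262 CPM at 24 h, 134 and 147 CPM at 18 h, log2 fold change 1.098 with SE 0.29, adjusted p = 0.0231). Neither call held without 24 h control replicate 1 (adjusted p = 0.0726 for mlc-1 and 0.131 for act-2) or 18 h control replicate 2 (0.15 and 0.0885). The call of mlc-1 also ended without 24 h control replicate 2 (0.101), and that of act-2 without 18 h control replicate 1 (0.106). The actin genes act-1 to act-4 are near-identical, so act-2 is uncertain.

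Neuronal genes showed little that passed the test. None of 40 genes of synaptic vesicles and neurotransmission and none of 21 genes of cilia was called by edgeR or DESeq2. At an unadjusted p below 0.05, 2 synaptic genes were higher and 4 lower, and 0 genes of cilia passed. The median of the synaptic list was -0.30, and 12 of the 40 genes had a positive estimate. That median lay 0.24 to 0.42 below that of all genes over the main setting and the 12 alternatives that keep all control libraries. Summed levels of the synaptic list were 4795.5 and 5005 CPM at 24 h and 5628 and 5311.5 CPM at 18 h. The medians of the cilia and peptide lists were -0.22 and -0.24. Of 53 genes of neuropeptides and insulin-like peptides, 1 was lower (1.89%, beside 2.13% over all genes tested). This was nlp-24, a neuropeptide-like gene, with 79.98 and 42.7 CPM at 24 h and 378 and 415 CPM at 18 h (log2 fold change -2.75 with SE 0.36, adjusted p = 1.21e-06), and it was among the 36 held calls.

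Of 32 genes of intestinal identity and digestion, 1 was higher and 1 lower (3.125% each, beside 0.922% and 2.13% over all genes tested). The summed level overlapped between the times (30795 and 24213 CPM at 24 h, 24185 and 29152 CPM at 18 h). The higher gene was cpr-5, described above. The lower gene, ifb-2, encodes an intermediate filament of the intestinal terminal web and had 1683 and 1388 CPM at 24 h and 3125 and 2967 CPM at 18 h (log2 fold change -0.99 with SE 0.22, adjusted p = 0.00409). Its adjusted p was 0.148 without 24 h control replicate 2 and 0.117 without 18 h control replicate 1. Of 51 genes of the V-ATPase, autophagy and the lysosome, 0 were higher and 3 lower (5.88%, beside 2.13% over all genes tested). Of the 51, 13 had a positive estimate and the median was -0.39. The median lay between 0.33 and 0.51 below that of all genes over the main setting and those 12 alternatives. All 3 serve autophagy. The autophagosomal protein LGG-1, the worm's Atg8, is encoded by lgg-1, which had 314 and 205 CPM at 24 h and 642 and 519 CPM at 18 h (log2 fold change -1.19 with SE 0.26, adjusted p = 0.00501). The gene atg-2 had 387 and 390.3 CPM at 24 h and 836 and 836 CPM at 18 h (log2 fold change -1.105 with SE 0.24, adjusted p = 0.00352). For epg-2, an autophagy adaptor, the values were 102 and 118 CPM at 24 h and 254 and 409 CPM at 18 h (log2 fold change -1.56 with SE 0.31, adjusted p = 0.0013). In each of these genes, as in every gene called lower, the 24 h values lay below both 18 h values. The adjusted p without 24 h control replicate 2 was 0.196 for lgg-1 and 0.0789 for atg-2, without 18 h control replicate 1 it was 0.185 and 0.0844, and without 18 h control replicate 2 it was 0.114 for epg-2.

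Of 37 ABC transporters, which pump lipids, drugs and metabolites across membranes, 1 was higher and 5 lower, with a median of -0.23. These were 2.70% and 13.5% of the family, beside 0.922% and 2.13% over all genes tested. The P-glycoprotein gene pgp-14 had 394 and 405 CPM at 24 h and 1239 and 1252 CPM at 18 h (log2 fold change -1.64 with SE 0.23, adjusted p = 4.48e-06), and was among the 36 held calls. The other lower genes were pgp-4, pgp-9, pgp-1 and pmp-3, with log2 fold changes of -2.31, -1.33, -1.26 and -1.36. Each of the 4 lost its call without 1 or more single libraries, with the largest adjusted p of 0.406 for pgp-4 (without 18 h control replicate 1), 0.177 for pgp-9 (without 24 h control replicate 2), 0.545 for pgp-1 and 0.386 for pmp-3 (both without 18 h control replicate 2). The higher gene, mrp-5, is known as an exporter of heme from the intestine, and had 310.3 and 248 CPM at 24 h and 124 and 134 CPM at 18 h (log2 fold change 1.103 with SE 0.30, adjusted p = 0.0273). Its call ended without 24 h control replicate 1 (adjusted p = 0.123), without 18 h control replicate 1 (0.11) or 18 h control replicate 2 (0.0968).

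Among detoxification enzymes, 1 of 27 glutathione transferases was higher and 2 were lower, 3 of 38 UDP-glucuronosyltransferases were lower and none of 29 cytochrome P450 genes was called by edgeR or DESeq2 (2 higher and 6 lower at an unadjusted p below 0.05). The shares were 3.70% higher and 7.41% lower for glutathione transferases and 7.89% lower for UDP-glucuronosyltransferases, beside 0.922% and 2.13% over all genes tested. The lower UDP-glucuronosyltransferases ugt-13, ugt-16 and ugt-63 all lost their calls when 24 h control replicate 2 was left out, at adjusted p of 0.0801, 0.375 and 0.22, and likewise for 18 h control replicate 1 (0.321, 0.0837 and 0.183), ugt-13 also without 24 h control replicate 1 (0.0933) and ugt-16 without 18 h control replicate 2 (0.223). The glutathione transferase gst-14 had 25.6 and 14.2 CPM at 24 h and 124 and 103.8 CPM at 18 h (log2 fold change -2.59 with SE 0.50, adjusted p = 0.00104, and 0.0789 without 24 h control replicate 2). For gst-21 the values were 15.996 and 22.4 CPM at 24 h and 69.7 and 165 CPM at 18 h (log2 fold change -2.53 with SE 0.52, adjusted p = 0.00203, and 0.177 without 18 h control replicate 2). The higher gene, gst-24, had 63.98 and 54.9 CPM at 24 h and was listed at 18 h in replicate 2 alone, at 24.4 CPM (log2 fold change 2.08 with SE 0.60, adjusted p = 0.0403), and its adjusted p was 0.101 and 0.094 without 24 h control replicates 1 and 2 and 0.354 without 18 h control replicate 1. Of the nuclear hormone receptors tested, 3 were lower and 101 did not pass. The share of 2.88% lower was near the 2.13% over all genes tested. A positive estimate was found for 28, and the median was -0.52. One of the 3, nhr-31, had 25.6 and 56.9 CPM at 24 h and 179 and 109.9 CPM at 18 h (log2 fold change -1.75 with SE 0.42, adjusted p = 0.01), with an adjusted p of 0.136 without 24 h control replicate 1 and 0.326 without 18 h control replicate 1. The other 2, nhr-62 and nhr-63, were unlisted in both 24 h libraries and at least 4.41-fold and 6.01-fold lower, and their calls ended without 24 h control replicate 2 (adjusted p = 0.177 and 0.175) or 24 h control replicate 1 (0.0664 and 0.0788), that of nhr-62 without 18 h control replicate 1 (0.267) and that of nhr-63 without 18 h control replicate 2 (0.509). Both were included through the 18 h libraries alone. None of 29 homeobox regulators, 16 heterochronic genes and 17 regulators of the molt cycle and epidermis was called by either tool, with 1 higher and 2 lower, 1 higher and 0 lower, and 1 higher and 2 lower at an unadjusted p below 0.05, in the order named.

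Fatty acid oxidation and lipases had 45 tested genes and 3 lower (6.67%, beside 2.13% over all genes tested). They were the acyl-CoA oxidases acox-3 (-1.603) and acox-1.5 (-1.29) and the carnitine palmitoyltransferase cpt-1 (-0.78, each a log2 fold change). Of 22 genes of glycolysis and gluconeogenesis 2 were lower (9.09%). These were pck-1, the phosphoenolpyruvate carboxykinase of gluconeogenesis, with 630.2 and 644 CPM at 24 h and 1204 and 1117 CPM at 18 h (log2 fold change -0.87 with SE 0.22, adjusted p = 0.0198), and the phosphofructokinase gene pfk-1.1, with 205 and 260.2 CPM at 24 h and 393 and 513 CPM at 18 h (log2 fold change -0.94 with SE 0.26, adjusted p = 0.0331). In both genes, as in every called gene, the times did not overlap. None of these 5 genes was called without 24 h control replicate 2 (adjusted p between 0.104 for pfk-1.1 and 0.266 for cpt-1). With 18 h control replicate 2 left out, adjusted p for the 5 lay between 0.09 for cpt-1 and 0.332 for pfk-1.1. The largest without 18 h control replicate 1 was 0.542 for cpt-1, and without 24 h control replicate 1 it was 0.244 for pfk-1.1. Without global depletion replicate 1 it was 0.115 for cpt-1, 0.0700 for pfk-1.1 and 0.0569 for pck-1. Of 20 genes of fatty acid synthesis none was called by edgeR or DESeq2, while 15 had a positive estimate and 10 were higher and 0 lower at an unadjusted p below 0.05. Among them fasn-1, the fatty acid synthase, had 2371 and 2322 CPM at 24 h and 1463 and 1520.2 CPM at 18 h (log2 fold change 0.65 with SE 0.21, adjusted p = 0.0827). Of 51 genes of the respiratory chain 1 was higher (1.96%, beside 0.922% over all genes tested). This was gas-1, a complex I subunit, with 378 and 276 CPM at 24 h and 129.4 and 189 CPM at 18 h (log2 fold change 1.04 with SE 0.29, adjusted p = 0.0359). Its adjusted p was 0.18 without 24 h control replicate 1 and 0.224 without 18 h control replicate 1.

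Genes of protein synthesis mostly had small positive estimates that did not pass the test. Of 79 cytosolic ribosomal proteins none was called by edgeR or DESeq2, 11 were higher and 0 lower at an unadjusted p below 0.05, 69 had a positive estimate and the median log2 fold change was 0.30. Their summed level was 144730.2 and 128573 CPM at 24 h and 102423 and 117109.9 CPM at 18 h, with both 24 h values above both 18 h values. Of 41 translation factors none was called by either tool, 17 were higher and 0 lower at an unadjusted p below 0.05, 36 had a positive estimate and the median was 0.48. The elongation factor gene eef-2 had 11354 and 10886 CPM at 24 h and 8052 and 8926 CPM at 18 h (log2 fold change 0.39 with SE 0.21, adjusted p = 0.336). Of 38 ribosome biogenesis factors none was called by either tool, 7 were higher and 0 lower at an unadjusted p below 0.05 and 31 had a positive estimate, with a median of 0.42. The nucleolar methyltransferase gene fib-1 had 1273 and 1344 CPM at 24 h and 921 and 769 CPM at 18 h (log2 fold change 0.63 with SE 0.22, adjusted p = 0.116). Of 22 aminoacyl-tRNA synthetases 21 had a positive estimate and 1, the aspartyl enzyme dars-1, was higher (157 and 157 CPM at 24 h, 69.7 and 48.8 CPM at 18 h, log2 fold change 1.38 with SE 0.39, adjusted p = 0.035), with an adjusted p of 0.0697, 0.107, 0.0587 and 0.2 without 24 h control replicates 1 and 2 and 18 h control replicates 1 and 2. The medians of ribosomal proteins lay 0.25 to 0.36, those of translation factors 0.44 to 0.55 and those of ribosome biogenesis factors 0.25 to 0.49 above the median of all genes over the main setting and the 12 alternatives that keep all control libraries. Of 32 proteasome subunits 26 had a positive estimate, and 1, the regulatory subunit gene rpn-7, was higher (92.8 and 67.1 CPM at 24 h, 24.9 and 18.3 CPM at 18 h, log2 fold change 1.83 with SE 0.53, adjusted p = 0.0407), a call that ended without any 1 of the 4 control libraries, at adjusted p up to 0.19. The shares higher were 4.55% of the synthetases and 3.125% of the proteasome subunits, beside 0.922% over all genes tested.

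Genes of chromosome duplication and cell division were called on the higher side alone. Of 50 tested, 4 were higher (8%, beside 0.922% over all genes tested), 0 were lower and 41 had a positive estimate. The median of 0.54 lay 0.50 to 0.73 above that of all genes over the same settings. The condensin subunit gene smc-4 had 154 and 181 CPM at 24 h and 84.6 and 42.7 CPM at 18 h (log2 fold change 1.36 with SE 0.39, adjusted p = 0.0407). The polo-like kinase gene plk-1 had 111.97 and 69.1 CPM at 24 h and 14.9 and 30.5 CPM at 18 h (log2 fold change 1.997 with SE 0.58, adjusted p = 0.0426). The other 2 were spd-5, a centrosome scaffold, with a log2 fold change of 1.47, and top-2, a topoisomerase, with 1.15. In each of the 4 genes, as in every gene called higher, both 24 h values lay above both 18 h values. Leaving out 18 h control replicate 1 gave an adjusted p of 0.254 for plk-1, 0.2 for spd-5 and 0.205 for top-2. For smc-4 it was 0.168 without 24 h control replicate 2 and 0.284 without 18 h control replicate 2. With 24 h control replicate 1 left out it was 0.172 for plk-1 and 0.191 for spd-5, and without 24 h control replicate 2 it was 0.257 for top-2. Without 18 h control replicate 2 it was 0.0716 for plk-1 and 0.0629 for spd-5, and without hypodermal depletion replicate 3 it was 0.0573 for plk-1.

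Of 27 histone genes 2 were higher (7.41%, beside 0.922% over all genes tested), 0 lower and 21 had a positive estimate. Only 14 of them were listed in all 4 control libraries, of which 11 had a positive estimate. The linker histone gene hil-3 had 205 and 201 CPM at 24 h and 59.7 and 97.7 CPM at 18 h (log2 fold change 1.39 with SE 0.38, adjusted p = 0.0308), and his-64 had 189 and 173 CPM at 24 h and 79.6 and 30.5 CPM at 18 h (log2 fold change 1.66 with SE 0.40, adjusted p = 0.0104). Core histone genes are near-identical copies, so his-64 is uncertain, and its adjusted p was 0.172 without 18 h control replicate 2. That of hil-3 was 0.0715 without 24 h control replicate 1, 0.103 without 24 h control replicate 2 and 0.208 without 18 h control replicate 1. Of 42 genes of the nuclear pore and lamina 2 were higher (4.76%) and 0 lower. These were lem-2, of the inner nuclear membrane, which had 63.98 and 69.1 CPM at 24 h and was listed at 18 h in replicate 2 alone, at 18.3 CPM (log2 fold change 2.59 with SE 0.64, adjusted p = 0.0118), and npp-13, a nucleoporin, which had 70.4 and 95.5 CPM at 24 h and 29.9 and 18.3 CPM at 18 h (log2 fold change 1.77 with SE 0.50, adjusted p = 0.0359). Their adjusted p without 24 h control replicate 2 were 0.0699 and 0.192, without 18 h control replicate 1 0.179 and 0.0804, and for npp-13 0.207 without 18 h control replicate 2. Of 19 basement membrane genes, which make the extracellular sheet around tissues, 2 were higher (10.5%) and 0 lower. The metalloprotease gene gon-1 had 246 and 413 CPM at 24 h and 119.4 and 183 CPM at 18 h (log2 fold change 1.16 with SE 0.31, adjusted p = 0.0274), and the laminin gene lam-1 had 525 and 655 CPM at 24 h and 328 and 287 CPM at 18 h (log2 fold change 0.94 with SE 0.25, adjusted p = 0.0272). Their calls ended without 24 h control replicate 2, at adjusted p of 0.312 and 0.177, and without 18 h control replicate 1, at 0.2 and 0.0514. Without 18 h control replicate 2 that of lam-1 was 0.158. Of 31 genes of protein folding in the ER, 1 was higher and 1 lower (3.23% each, beside 0.922% and 2.13% over all genes tested). A positive estimate was found for 22, and the median was 0.28. The higher gene, dnj-27, was unlisted in both 18 h libraries and is described with the largest rises below. The lower gene was hsp-4, a BiP chaperone that is known to rise with ER stress, with 173 and 118 CPM at 24 h and 304 and 366 CPM at 18 h (log2 fold change -1.22 with SE 0.29, adjusted p = 0.0102). The adjusted p of hsp-4 was 0.22 without 24 h control replicate 2, 0.0608 without 18 h control replicate 1 and 0.138 without 18 h control replicate 2.

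**Figure D4:**
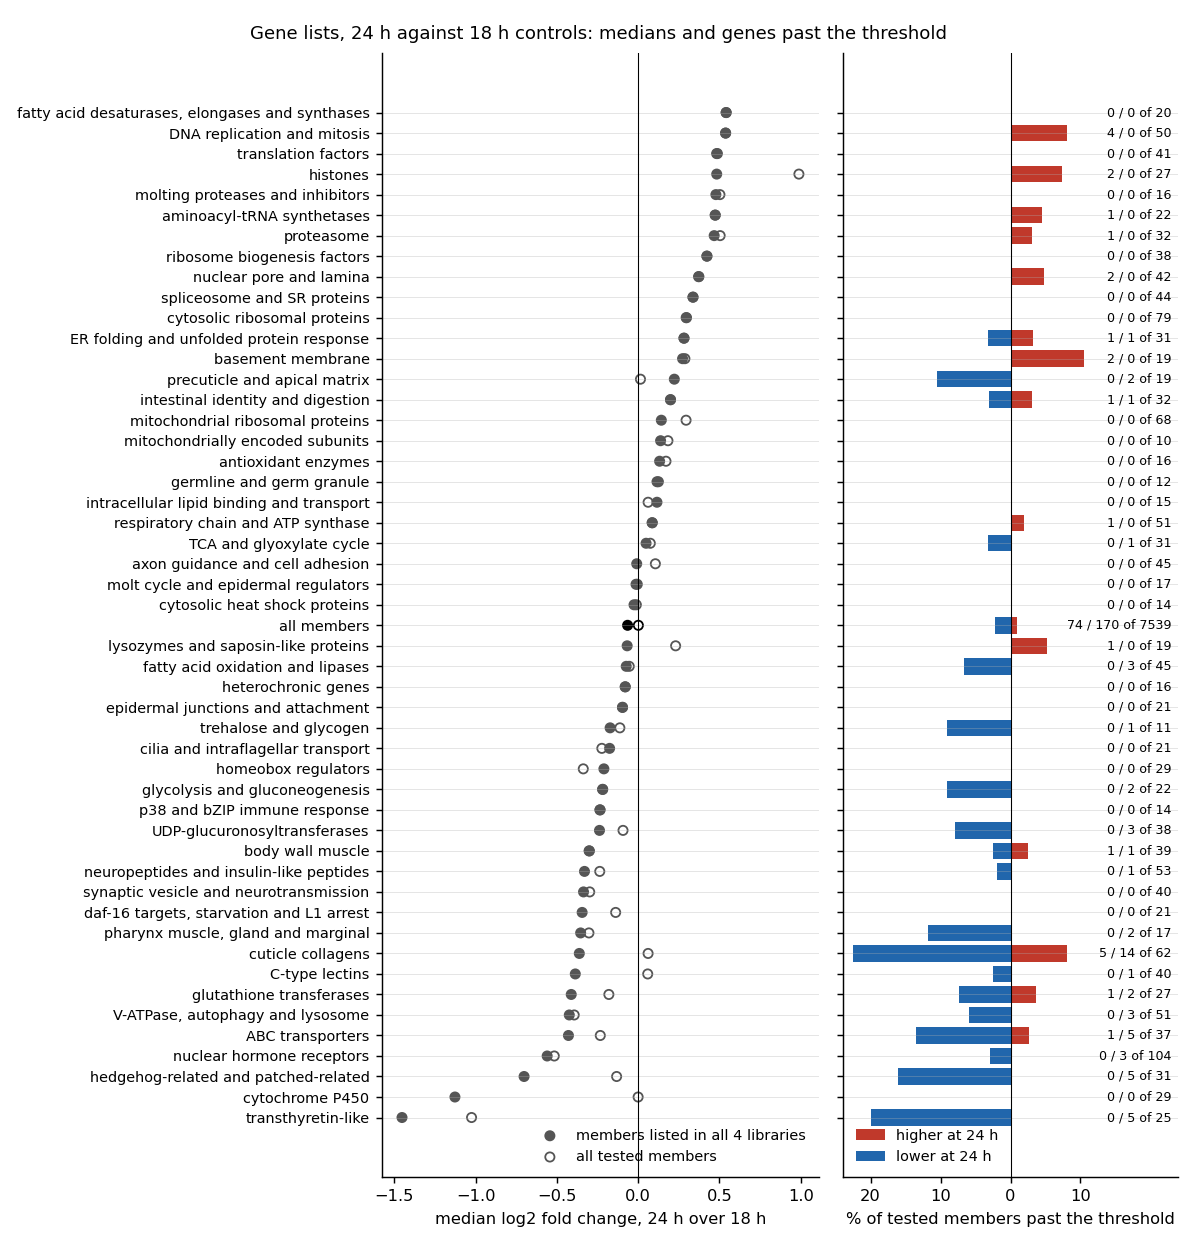
Left, the median log2 fold change of the 24 h over the 18 h controls for each gene list with at least 10 tested members, over all tested members (open) and over those listed in all 4 control libraries (filled). Right, the share of tested members called higher (red) and lower (blue) at 24 h, with the counts higher / lower of tested printed beside the bars: cuticle collagens had 5 and 14 of 62, transthyretin-like genes 0 and 5 of 25, and DNA replication and mitosis 4 and 0 of 50.

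Genes outside the lists were called in both directions. The lists held 24 of the 74 genes called higher and 57 of the 170 called lower. The genes outside the lists that are named in this paragraph were lower at 24 h. Y47D7A.13 had 67.2 and 102 CPM at 24 h and 876 and 1288 CPM at 18 h (log2 fold change -3.64 with SE 0.29, adjusted p = 1.39e-12), the smallest adjusted p of the comparison. The nitrilase gene nit-1 was listed at 24 h in replicate 2 alone, at 10.2 CPM, and had 214 and 103.8 CPM at 18 h (log2 fold change -4.43 with SE 0.64, adjusted p = 6.50e-06). The cation-transporting ATPase gene catp-3 had 96.0 and 73.2 CPM at 24 h and 498 and 653 CPM at 18 h (log2 fold change -2.78 with SE 0.29, adjusted p = 4.50e-09). In each of them the times were far apart, and all 3 were among the 36 held calls. So were tyr-2 (log2 fold change -3.14), glb-1 (-3.01) and lec-2 (-1.204), whose families are taken up in the closing observations. The same was found for 8 more genes outside the lists, namely C18H7.1, C45B2.2, Y97E10AR.1, Y54G2A.11, the dipeptidyl peptidase-like gene dpf-2, the zinc finger gene ccch-1, the degenerin-like channel gene del-6 and hpd-1, which encodes a dioxygenase of tyrosine breakdown. Their log2 fold changes were -2.80, -2.67, -2.34, -1.89, -2.67, -1.64, -1.49 and -1.44. Of these, hpd-1 had 141 and 140.3 CPM at 24 h and 378 and 385 CPM at 18 h.

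Of the 12 largest fitted falls, 9 were genes unlisted in both 24 h libraries. Besides col-165, col-12 and col-65 these were K10H10.4, ham-3, F20G2.5, F49F1.7, C08B6.4 and fipr-4, with 42.7 to 97.7 CPM at 18 h and bounds of at least 6.53-fold (C08B6.4 and fipr-4) to at least 10.7-fold lower (K10H10.4). All 9 were included through the 18 h libraries alone, so their direction was fixed. None of these 6 kept its call without 24 h control replicate 2, where adjusted p lay between 0.0576 for K10H10.4 and 0.181 for F49F1.7. Without 24 h control replicate 1 the calls of 2 of the 6 ended (adjusted p up to 0.0916), without 18 h control replicate 1 those of 2 (up to 0.182) and without 18 h control replicate 2 those of 3 (up to 0.0658). The Q/N-rich gene pqn-72 was listed at 24 h in replicate 1 alone, at 9.597 CPM, and had 119.4 and 109.9 CPM at 18 h (log2 fold change -4.45 with SE 0.83, adjusted p = 5.94e-04, and 0.0526 without 24 h control replicate 2).

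Of the 12 largest fitted rises, 9 were genes unlisted in both 18 h libraries, with 35.2 to 67.2 CPM at 24 h. They were F55F3.2, Y6B3B.9, hcp-2, F17C11.11, B0205.6, nasp-1, dnj-27, msh-6 and R07E5.1, and they were at least 2.53-fold (R07E5.1) to at least 3.49-fold higher (F55F3.2) at 24 h. All 9 were included through the 24 h libraries alone, so their direction was fixed. The gene hcp-2 encodes a kinetochore protein, nasp-1 a histone chaperone, msh-6 a DNA mismatch repair protein and dnj-27 a DnaJ protein of the ER. All 9 lost their calls without 18 h control replicate 1, at adjusted p between 0.118 and 0.208, and without 18 h control replicate 2, at 0.0898 to 0.152. Without 24 h control replicate 2, 8 of them did, at up to 0.189, and without 24 h control replicate 1, 5 did, at up to 0.0697. Leaving out a single depleted library ended 1 to 3 of the calls, at up to 0.0604. The other 3 of the 12 were lem-2, hrg-7 and col-41, and of the 12 genes hrg-7 alone was among the 36 held calls.

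Levels of the same genes at 24 h in the depleted groups are given beside the controls of both times. These groups differ from the controls by IAA and TIR1 together, and hypodermal depletion applies where col-10p is active, while whole animals were sequenced; the loss of RPOA-2 protein was not measured in these files. These comparisons share the 24 h controls with the one above, so their values are set side by side here and no agreement between them is measured. Genes called above were picked partly on those 24 h controls, which favours a shift back toward the 18 h level in depletion. The adjusted p of single genes below are descriptions and add no support. At an adjusted p below 0.05, 8.5% of the 8026 tested genes were called in global depletion and 5.07% in hypodermal depletion against the 24 h controls. The collagen genes dpy-13 and dpy-4 were unlisted in every depleted library. Of the genes higher at 24 h, cpr-5 had 170.4 and 144 CPM in global depletion and 706, 689.7 and 944 CPM in hypodermal depletion, against 822 and 604 CPM in the 24 h controls. Global depletion lay below the 24 h controls (-2.17, adjusted p = 2.09e-09), and its values were below those of the 18 h controls too (209 and 281 CPM). The gene mpc-1 had 193.22 and 99.9 CPM in global and 287, 242 and 212 CPM in hypodermal depletion, against 509 and 429 CPM in the 24 h controls (log2 fold changes -1.67 and -0.91, adjusted p = 6.12e-06 and 0.00884). The gene hrg-7 had 738 and 942 CPM in global and 434, 531 and 615 CPM in hypodermal depletion, all above the 18 h controls (84.6 and 97.7 CPM).

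The genes lower at 24 h that are given here are examples and do not stand for all. Y47D7A.13, tyr-2, catp-3 and ttr-15, also among the 36 held calls, passed in neither depletion against the 24 h controls (adjusted p between 0.113 and 0.998). Of the genes lower at 24 h, nlp-24 had 23.6 and 26.9 CPM in global and 16.99, 15.6 and 28.8 CPM in hypodermal depletion, against 79.98 and 42.7 CPM in the 24 h controls (log2 fold changes -1.22 and -1.61, adjusted p = 0.043 and 0.00459). The depleted libraries thus lay on the far side of the 24 h controls from the 18 h controls (378 and 415 CPM). For col-125 the depleted values were 36.5 and 60.8 CPM in global and 38.8, 41.24 and 41.8 CPM in hypodermal depletion, also below the 24 h controls (log2 fold changes -1.46 and -1.71, adjusted p = 5.86e-04 and 1.89e-05). The collagen gene col-165, unlisted in the 24 h controls, had 27.4 and 39.96 CPM in global and 42.7, 67.6 and 47.1 CPM in hypodermal depletion, between the floor of the 24 h controls and the 18 h controls (114 and 103.8 CPM). The transporter gene pgp-14 had 749 and 673 CPM in global and 716, 652 and 506 CPM in hypodermal depletion, above 394 and 405 CPM in the 24 h controls and below 1239 and 1252 CPM in the 18 h controls (log2 fold changes 0.83 and 0.65 against 24 h, adjusted p = 0.0102 and 0.0564, of which the second did not pass).

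**Figure D5:**
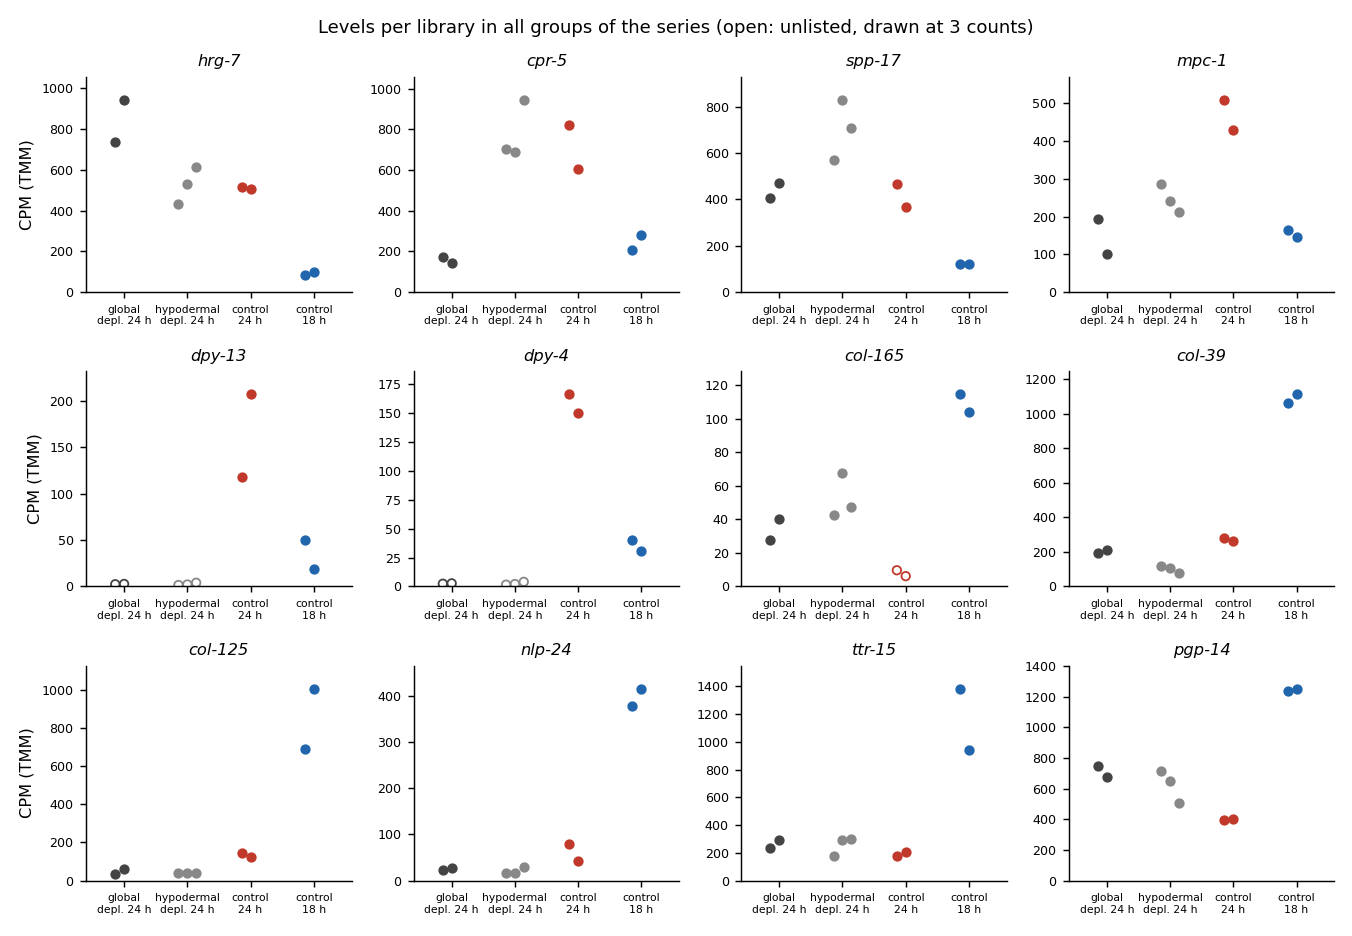
CPM in every library of global depletion, hypodermal depletion, the 24 h controls and the 18 h controls for 12 genes called between the control times; each panel has its own axis from 0. Open symbols mark unlisted counts, drawn at 3 counts: dpy-13 and dpy-4 were unlisted in all 5 depleted libraries and col-165 in both 24 h controls.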

How the data were processed

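RNA was read from 9 libraries of whole worms: 24 h controls (n = 2), 18 h controls (n = 2), hypodermal depletion (n = 3) and global depletion (n = 2). The labels' protocols name Trizol for extraction, RNase H for removing ribosomal RNA and a SMARTER kit for the libraries. The authors deposited raw counts per gene over coding sequence, with 1 transcript a gene and no count below 3. The build, WBcel235, and DESeq2 are named in the submitters' processing notes, and how reads were aligned, counted, assigned to a strand or shared between genes is not given in the sources used here. The table names 10 libraries, of which 1 matched no sample and was not used.

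Unlisted counts were entered as 1. The filter (filterByExpr of edgeR 4.0.16, minimum count 10 and minimum total 15, on listed counts) kept 8026 genes. TMM factors and a quasi-likelihood fit (robust) to the 9 libraries in R 4.3.3, with a term per group, gave log2 fold changes of 24 h over 18 h, with the standard error and a Benjamini-Hochberg adjusted p over all 8026 genes, and 0.05 was the threshold. The biological coefficient of variation was 0.203. The 7539 tested genes of the 8014 described were read from that fit, and the other 475 fell below the filter. Where a time was unlisted in both libraries, the fold is a bound with 3 counts in each of them. CPM carry the TMM factors. The script was tested on simulated data with known changes.

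The genes described and the 59 gene lists were chosen with earlier results of these data known. Genes named are rpoa-2, the 12 largest rises and falls among called genes that averaged 10 CPM or more without overlap (histones left out), up to 4 called genes per list or up to 2 of the most abundant where none was called. The 36 held calls, further called collagens, grl-4, ttr-18, pgp-1, mrp-5 and the families of the closing section, were named after their values were seen. Alternatives were other scalings, filters and entries for unlisted counts, the 4 control libraries alone, DESeq2 1.42.0, a replicate block, thinning, and leaving out each library. Coding length was known for 6920 of the 8014 genes, so levels of different genes are not compared.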

Additional observations from a re-analysis of the deposited data

How the results depend on the processing

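No called gene that is named changed sign in any of the 21 alternatives, and no called gene was called the other way. Against 244 calls (74 higher and 170 lower at 24 h, 81 of them on a gene list), no filter gave 424 (352 and 72, 179 on a list). Unlisted counts as 0 gave 212 higher and 100 lower. The 4 control libraries alone gave 91 (19 and 72, 38 on a list). That refit tested 4019 genes, among them 221 of the 244, with fewer libraries behind the spread. Thinning all libraries to the shallowest total gave 160, with 107 lower. Thinning the 24 h controls to the mean 18 h total, chosen after seeing the data, gave 157, with 103 lower and 53 on a list. DESeq2 called 42 higher. Leaving out 1 library gave 76 to 236 calls, 29 to 82 higher, 47 to 163 lower and 29 to 82 on a list. The 24 h control libraries are deeper, and the fewest calls were left without 24 h control replicate 2. With the replicate number as a block, 43 genes were higher (172 called in all). The numbers mark no shared source in the labels and the correlation of same-numbered deviations was -0.0384 over 4779 genes, so they do not pair the libraries. The uncalled rpoa-2 estimate of -0.11 turned to 0.33 with no filter and 0.080 with unlisted counts as 0, and ran from -0.49 (without 24 h control replicate 2) to 0.25 (without 24 h control replicate 1) with 1 library left out. For the single genes followed through the alternatives, 517 estimates fell short of the threshold that they passed in the main setting. Those genes were the named genes, the other called collagens and some further called genes such as asp-12, jmjc-1 and pho-9. Losses among the remaining called genes are not in that number. What the changes between these alternatives come from was not tested. At 18 h, 3 counts were 14.9 and 18.3 CPM, so losses and gains below that level could not be detected.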

Other observations

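Galectins, lectins that bind galactosides, were not among the lists described above and were looked at after their values were seen. The same holds for the tyrosinase and globin genes given after them. Of 11 tested galectin genes 0 were higher and 4 lower at 24 h (36.4%, beside 2.13% over all genes tested). There were 2 positive estimates and the median log2 fold change was -0.90, beside 0.00 over all tested genes. The gene lec-2 had 461 and 492 CPM at 24 h and 1005 and 1197 CPM at 18 h (log2 fold change -1.204 with SE 0.23, adjusted p = 6.64e-04). It held without each library in turn, and with no filter on low counts its adjusted p was 0.0523. The genes lec-9 (496 and 289 CPM at 24 h, 921 and 965 CPM at 18 h), lec-3 (195 and 187 CPM at 24 h, 478 and 446 CPM at 18 h) and lec-5 (144 and 150.4 CPM at 24 h, 418 and 219.8 CPM at 18 h) had log2 fold changes of -1.28, -1.28 and -1.13. Their adjusted p without 24 h control replicate 2 were 0.185, 0.0885 and 0.146. Without 18 h control replicate 1 those of lec-3 and lec-5 were 0.0944 and 0.698, and without 24 h control replicate 1 that of lec-5 was 0.129. Of 4 tested tyrosinase genes, copper enzymes that oxidise tyrosine, 2 were lower (50%, beside 2.13% over all genes tested) and 0 had a positive estimate. The gene tyr-2 had 41.6 and 50.8 CPM at 24 h and 333 and 501 CPM at 18 h (log2 fold change -3.14 with SE 0.35, adjusted p = 1.84e-08), and held without each library in turn. The call of tyr-1 (log2 fold change -3.68) ended without 24 h control replicate 2 (adjusted p = 0.107), without 18 h control replicate 1 (0.0795) and with the 4 control libraries alone (0.0504). Of 13 tested globin genes 0 were higher, 2 lower (15.4%) and 11 did not pass, with a median of -0.31. The globin gene glb-1, of an oxygen-binding family, held without each library in turn, with 12.797 and 18.3 CPM at 24 h and 119.4 and 140.4 CPM at 18 h (log2 fold change -3.01 with SE 0.62, adjusted p = 0.00198).

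The genes given next, on the higher side, were also looked at after their values were seen. They include smc-4 of the cell division list above, so they are no separate support for that list. All 7 genes of a group that includes SMC subunits of cohesin and condensin, the ring complexes that hold and compact chromosomes, had positive estimates. Their median was 0.94, and 2 of them were called higher (28.6%, beside 0.922% over all genes tested). Beside smc-4, described above, this was smc-3, with 96.0 and 126 CPM at 24 h and 14.9 and 36.6 CPM at 18 h (log2 fold change 2.18 with SE 0.49, adjusted p = 0.00562). The anillin gene ani-1, which serves cytokinesis, had 202 and 228 CPM at 24 h and 44.8 and 85.5 CPM at 18 h (log2 fold change 1.76 with SE 0.36, adjusted p = 0.002). The dynein heavy chain gene dhc-1, a motor subunit, had 1488 and 1754 CPM at 24 h and 896 and 763 CPM at 18 h (log2 fold change 0.97 with SE 0.23, adjusted p = 0.0112). No value of these 3 genes overlapped between the times, as in every called gene. Leaving out 18 h control replicate 1 gave an adjusted p of 0.117 for smc-3 and 0.0714 for ani-1, without 24 h control replicate 2 it was 0.0779 for smc-3 and 0.103 for dhc-1, and without 18 h control replicate 2 it was 0.12 for dhc-1. By chromosome, 46 of 1336 tested genes on chromosome V were lower at 24 h and 13 higher, beside 15 lower and 15 higher of 1322 on chromosome I, 24 and 11 of 1076 on chromosome X, 32 and 12 of 1245 on chromosome II, 21 and 11 of 1316 on chromosome III and 32 and 12 of 1234 on chromosome IV. Over all genes tested, 2.13% were lower and 0.922% higher.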
